A study of Mus musculus with 12 samples.

Results

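The 10 genes described here carry the extracellular ATP and adenosine system of the dendritic cell surface. They were chosen by name, with earlier results of these data known. The set comprises 3 enzymes (Entpd1, Nt5e and Ada), 3 adenosine receptors (Adora2a, Adora2b and Adora3), 2 ATP-gated channels (P2rx4 and P2rx7) and 2 nucleotide receptors (P2ry6 and P2ry14). Each matched 1 of the 31054 gene identifiers counted, and all 10 were among the 13141 genes with enough reads to test. RNA was sequenced from bone marrow cultures of wild-type C57BL6 mice, enriched on day 7 for live cells carrying CD11c, an integrin of dendritic cells. TolDC + LPS were cultures made tolerogenic with vitamin D3 and IL-10 and then exposed to LPS, a bacterial cell wall product that activates dendritic cells. TolDC had vitamin D3 and IL-10 without LPS, BMDC + LPS had LPS alone, and BMDC had neither. Each of the 4 groups had 3 libraries, and all groups shared the strain, genotype, day and enrichment. Neither the doses nor the length of the LPS exposure is stated in the labels. They also do not say whether libraries of a group came from separate mice or cultures, so the variation behind each p-value may be technical. Vitamin D3 and IL-10 were combined in every tolerogenic culture and cannot be told apart.

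Damaged or activated cells release ATP, which opens P2X channels and, with its breakdown products, binds P2Y receptors. The surface enzyme CD39, encoded by Entpd1, degrades ATP and ADP to AMP, and CD73, encoded by Nt5e, turns AMP into adenosine. Adenosine acts on its own receptors, of which those encoded by Adora2a and Adora2b raise cyclic AMP and restrain inflammatory output of dendritic cells and macrophages, until it is taken up or deaminated by adenosine deaminase, encoded by Ada.

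LPS raised transcripts of the adenosine receptors Adora2a and Adora2b and lowered those of the ATP-degrading enzyme CD39 and of adenosine deaminase in both kinds of culture. TolDC held less Adora2a and P2rx4 and more P2ry6, P2ry14 and Adora3 than BMDC, without and with LPS. The nucleotide receptor P2ry6 fell with LPS in BMDC, and in TolDC its change did not pass the test. These are bulk libraries, in which fewer cells of a type and less RNA per cell cannot be told apart. Calls were made with edgeR's quasi-likelihood test, 2-sided, at a Benjamini-Hochberg adjusted p below 0.05 over all 13141 genes.

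The libraries held 21844405 to 41764975 reads assigned to genes on the counted strand, 79.3% to 80.6% of the reads counted. At these depths the 3 counts that a count of 0 allows equalled 0.0718 to 0.137 CPM (counts scaled to the library's size), a bound that covers counting error only. Of 8 dendritic cell markers, none was at 0 in any library and their summed level was 10286 to 12306 CPM in TolDC + LPS, 8136 to 8581 CPM in TolDC, 10704 to 12225 CPM in BMDC + LPS and 7151 to 7488 CPM in BMDC. One of them, Flt3, reached at most 1.75 CPM. The 8 macrophage and monocyte markers, all of them above 0, summed to 1841 to 2291 CPM in TolDC + LPS, 2425 to 2440.2 CPM in TolDC, 1193 to 1539 CPM in BMDC + LPS and 6009 to 6236 CPM in BMDC. The part of macrophages and monocytes in the results was not tested. In every group the library numbered 1 stood apart from those numbered 2 and 3, with the lowest summed level for 6 of 11 marker lists (neutrophil, mast cell and basophil, eosinophil, B cell, NK cell, and erythroid and megakaryocyte) and the highest for 2 (dendritic cell, and stromal and endothelial). The part of these cell types in the results was not tested. Results that rest on the library numbered 1 are given with and without it. Libraries 2 and 3 of a group were nearly alike, with a chi-square per degree of freedom over genes of 1.35 to 2.30, against 5.16 to 11.6 between either and library 1. Fits without library 1 rest on such pairs, and a fit with libraries 2 and 3 of each group summed to 1 is therefore given beside them. The main fit and the summed fit have no term (block) for the library number. Both count the difference of library 1 as spread within groups.

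Promoter windows are shown for Adora2b and P2rx4, which rose with LPS in both kinds of culture, and for Entpd1 and Ada, which fell. Each window is the 250 bases before an annotated start (RefSeq, build GRCm38.p6), read 5′ to 3′ on the strand of the gene. They lie at chr11:62248734-62248983 on the plus strand for Adora2b, chr5:122707294-122707543 on the plus strand for P2rx4, chr19:40612116-40612365 on the plus strand for the first of 2 windows of Entpd1 and chr2:163750240-163750489 on the minus strand for Ada. Capitals mark a match, on either strand, of any of 8 searched motifs.
Adora2b: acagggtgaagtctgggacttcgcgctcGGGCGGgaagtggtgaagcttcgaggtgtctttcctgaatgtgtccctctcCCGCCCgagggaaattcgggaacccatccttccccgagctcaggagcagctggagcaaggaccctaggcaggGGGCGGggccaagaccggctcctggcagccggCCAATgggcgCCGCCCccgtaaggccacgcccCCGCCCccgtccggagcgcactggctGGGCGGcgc
P2rx4: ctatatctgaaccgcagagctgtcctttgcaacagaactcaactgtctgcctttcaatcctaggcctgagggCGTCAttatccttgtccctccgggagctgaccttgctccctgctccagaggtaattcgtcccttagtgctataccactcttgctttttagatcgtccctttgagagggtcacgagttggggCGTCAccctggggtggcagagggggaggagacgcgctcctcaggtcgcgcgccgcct
Entpd1: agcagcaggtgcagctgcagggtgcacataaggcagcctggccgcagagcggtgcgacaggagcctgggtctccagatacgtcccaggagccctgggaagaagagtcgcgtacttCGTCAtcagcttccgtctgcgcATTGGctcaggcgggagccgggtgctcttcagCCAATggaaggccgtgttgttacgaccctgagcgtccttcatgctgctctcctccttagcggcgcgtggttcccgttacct
Ada: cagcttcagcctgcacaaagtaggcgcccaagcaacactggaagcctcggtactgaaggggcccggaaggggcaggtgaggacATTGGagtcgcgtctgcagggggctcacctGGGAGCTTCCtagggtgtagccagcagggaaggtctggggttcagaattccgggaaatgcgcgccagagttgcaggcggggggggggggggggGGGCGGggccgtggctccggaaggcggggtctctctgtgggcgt
The motifs were the Sp1 GC box GGGCGG, the box CCAAT, the cyclic AMP response half-site TGACG, the PU.1 core GAGGAA, the hypoxia factor core ACGTG, the AP-1 motif TGANTCA, the NF-kB motif and the vitamin D receptor motif with a spacer of 3. The Adora2b window held 6 GC boxes and 1 CCAAT, the P2rx4 window 2 half-sites on its reverse strand, the first Entpd1 window 1 half-site and 2 CCAAT, and the Ada window 1 NF-kB match, 1 GC box and 1 CCAAT. A second Entpd1 window, chr19:40659520-40659769 on the plus strand, held 2 PU.1 cores, 1 half-site and 1 CCAAT and is not shown. Among all 32851 windows of this length, 32.7% held a GC box, 33.8% a CCAAT, 17.8% the half-site, 23.3% the PU.1 core, 16.6% the hypoxia core, 6.75% the AP-1 motif, 7.25% the NF-kB motif and 0.0396% the vitamin D receptor motif. Windows were at hand for 8 of the 10 genes, all but Adora2a and P2ry6. Of these 8 genes, 4 had a GC box, 4 a CCAAT, 2 the half-site, 3 the PU.1 core, 3 the AP-1 motif, 1 the NF-kB motif, and 0 the hypoxia core or the vitamin D receptor motif in any window. The 8 genes had 13 windows in all, so these counts per gene cannot be set against the shares per window. A match describes letters only.

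Levels of different genes were compared as CPM per kilobase of exon. In TolDC + LPS the order of mean levels per kilobase was led by Adora2b at 40.5, followed by P2ry6 at 24.6, P2rx4 at 17.4, Adora2a at 17.3 and P2ry14 at 12.5 CPM per kilobase. P2rx4 and Adora2a overlapped there. In TolDC the leading pair was P2ry6 at 24.9 and Entpd1 at 23.8 CPM per kilobase, with overlapping libraries, followed by P2ry14 at 12.03 and P2rx4 at 8.88. In BMDC + LPS it was Adora2a at 41.8 CPM per kilobase, then Adora2b at 32.5 and P2rx4 at 25.2, the last 2 overlapping. In BMDC, Entpd1 led at 27.3 CPM per kilobase, followed by P2rx4 at 20.3, Adora2b at 13.4 and P2ry6 at 10.2, none of which overlapped. Each group thus had another leading gene by mean level. Nt5e was lowest in all 4 groups, at 0.221 CPM per kilobase in TolDC + LPS, 0.158 in TolDC, 0.175 in BMDC + LPS and 0.252 in BMDC.

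**Figure D1:**
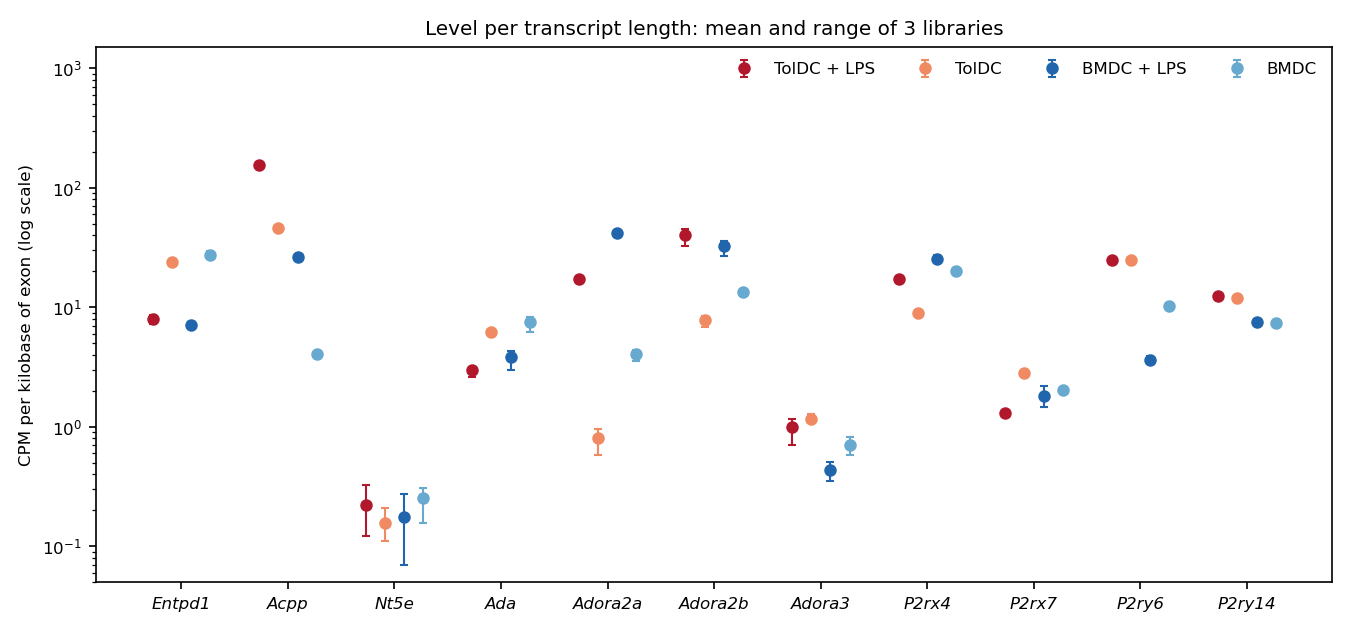
Mean level of each gene in CPM per kilobase of exon on a log axis, with bars from the lowest to the highest of 3 libraries, for TolDC + LPS, TolDC, BMDC + LPS and BMDC. Adora2a is lowest in TolDC, at 0.810, and highest in BMDC + LPS, at 41.8, Nt5e stays lowest in every group, and Acpp, another enzyme that acts on AMP, is plotted beside it.

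**Figure D2:**
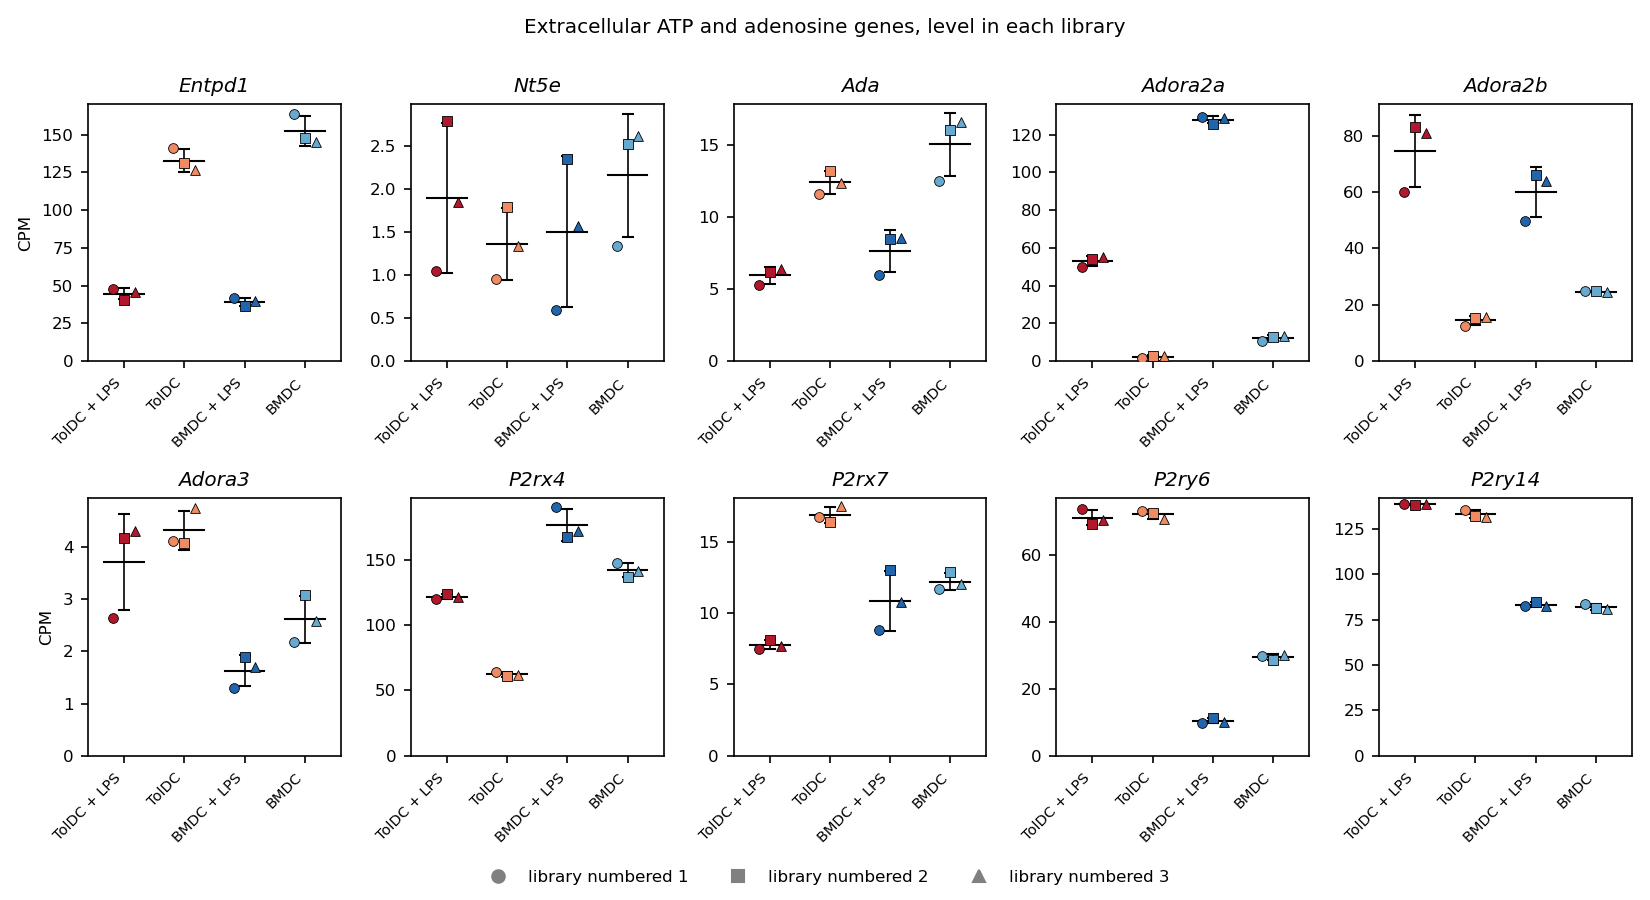
Level in CPM of each of the 10 genes in every library, by group, with the mean as a line and the SD as a bar (n = 3), and the marker shape giving the library's number. The 3 BMDC + LPS libraries are highest for Adora2a and P2rx4, TolDC + LPS and TolDC lie above both BMDC groups for P2ry6 and P2ry14, and the library numbered 1 is lowest in each group for Nt5e.

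Entpd1 (chr19:40612366-40741602, plus strand, ENSMUSG00000048120, GENCODE M21 on GRCm38, as for all genes here) was at 47.7, 40.5 and 46.1 CPM in TolDC + LPS and 141, 131 and 126 CPM in TolDC. In BMDC + LPS it had 41.9, 36.7 and 39.6 CPM, against 164, 148 and 145 CPM in BMDC. Both LPS groups lay below both groups without LPS. Entpd1 fell with LPS in TolDC (log2 change −1.57 ± 0.067 SE, 2.97-fold lower, edgeR adjusted p = 4.00e-12). It did so in BMDC as well (log2 change −1.95 ± 0.069 SE, 3.86-fold lower, edgeR adjusted p = 3.27e-13). The fall was smaller in TolDC, with a difference between the LPS responses of 0.38 ± 0.094 on the log2 scale (edgeR adjusted p = 0.00395). Between kinds of culture the changes were small. Without LPS, Entpd1 was lower in TolDC than in BMDC (log2 change −0.20 ± 0.063 SE, 1.15-fold lower, edgeR adjusted p = 0.0126). That call did not hold without BMDC replicate 1 (−0.14, edgeR adjusted p = 0.0635) or TolDC replicate 3 (−0.16, edgeR adjusted p = 0.0617). With LPS it was higher in TolDC + LPS than in BMDC + LPS (log2 change 0.18 ± 0.070 SE, 1.13-fold higher, edgeR adjusted p = 0.0317). Here the groups overlapped, and the test was not passed without any 1 of TolDC + LPS replicate 1 or 3 or BMDC + LPS replicate 2 or 3 (log2 changes of 0.13 to 0.18).

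Nt5e (chr9:88327197-88372092, plus strand, ENSMUSG00000032420) was scarce, at 1.04, 2.79 and 1.86 CPM in TolDC + LPS and 0.952, 1.80 and 1.34 CPM in TolDC. Levels in BMDC + LPS were 0.598, 2.35 and 1.57 CPM, against 1.34, 2.53 and 2.63 CPM in BMDC. These levels rest on 17 to 83 reads a library. All 4 groups overlapped with their neighbours in level, and no comparison passed the test with all 12 libraries, a mean per group and no block. The log2 change with LPS had a 95% interval from −0.63 to 1.58 in TolDC and from −1.69 to 0.56 in BMDC, around estimates of 0.48 (edgeR adjusted p = 0.412) and −0.57 (edgeR adjusted p = 0.332). TolDC over BMDC had a log2 change −0.66, 95% interval −1.78 to 0.45, edgeR adjusted p = 0.274. TolDC + LPS over BMDC + LPS had a log2 change 0.38, 95% interval −0.74 to 1.49, edgeR adjusted p = 0.522. The difference between the LPS responses was 1.04 ± 0.70 SE (edgeR adjusted p = 0.268).

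In each group Nt5e was lowest in the library numbered 1, with a log2 difference of −1.09 ± 0.17 SE against the libraries numbered 2 and 3 over the 4 groups. The 10 neutrophil markers, none of them at 0, were also lowest there, as were the other 5 lists named above. The neutrophil markers summed to 257, 615 and 525 CPM in TolDC + LPS replicates 1 to 3, 133, 651 and 639 CPM in TolDC, 382, 1689 and 1528 CPM in BMDC + LPS and 608, 2523 and 2454 CPM in BMDC. Without the 4 libraries numbered 1, Nt5e was higher in TolDC + LPS than in TolDC (0.54 ± 0.22 SE, edgeR adjusted p = 0.0236). It was then lower in TolDC than in BMDC (−0.73 ± 0.22 SE, edgeR adjusted p = 0.00382), and the difference between the LPS responses passed the test (0.93 ± 0.31 SE, edgeR adjusted p = 0.0107). The other comparisons did not pass it then either, with −0.39 ± 0.22 SE, edgeR adjusted p = 0.106 for BMDC + LPS over BMDC and 0.21 ± 0.22 SE, edgeR adjusted p = 0.401 for TolDC + LPS over BMDC + LPS. With libraries 2 and 3 of each group summed, none of the 5 comparisons of Nt5e passed. This fit has no block, so it counts the lower Nt5e of library 1 as spread within groups. The log2 changes were then those with LPS in TolDC (0.42 ± 0.65 SE, edgeR adjusted p = 0.609) and in BMDC (−0.58 ± 0.65 SE, edgeR adjusted p = 0.47), TolDC + LPS over BMDC + LPS (0.35 ± 0.65 SE, edgeR adjusted p = 0.671), TolDC over BMDC (−0.65 ± 0.66 SE, edgeR adjusted p = 0.449) and the difference between the LPS responses (1.00 ± 0.93 SE, edgeR adjusted p = 0.469). With the library number as a replicate block, Nt5e passed for LPS in TolDC (0.46, edgeR adjusted p = 0.042) and in BMDC (−0.55, edgeR adjusted p = 0.0183). It also passed there for TolDC over BMDC (−0.66, edgeR adjusted p = 0.00631) and for the difference between the LPS responses (1.01, edgeR adjusted p = 0.00487). The part of the cells these markers stand for in the Nt5e values was not tested.

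**Figure D3:**
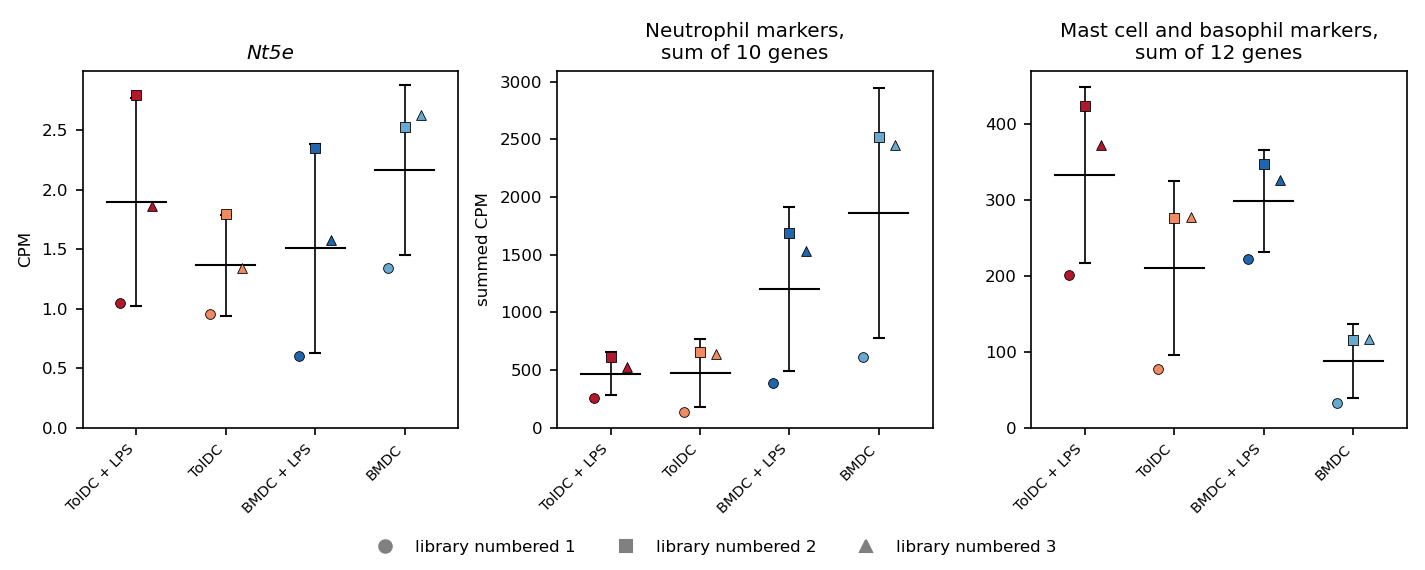
Nt5e in CPM beside the summed CPM of 10 neutrophil markers and of 12 mast cell and basophil markers in every library, by group, with mean and SD (n = 3) and the marker shape giving the library's number. The library numbered 1 has the lowest value in every group of all 3 panels.

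Ada (chr2:163726584-163750239, minus strand, ENSMUSG00000017697) encodes the enzyme that turns adenosine into inosine. It was at 5.26, 6.19 and 6.37 CPM in TolDC + LPS and 11.6, 13.2 and 12.4 CPM in TolDC. The BMDC + LPS libraries had 5.95, 8.43 and 8.54 CPM, against 12.5, 16.0 and 16.5 CPM in BMDC. Every LPS library lay below every library without LPS. Ada fell in TolDC + LPS relative to TolDC (log2 change −1.06 ± 0.13 SE, 2.08-fold lower, edgeR adjusted p = 3.08e-06) and in BMDC + LPS relative to BMDC (log2 change −0.98 ± 0.13 SE, 1.98-fold lower, edgeR adjusted p = 5.78e-06), and the difference between these responses did not pass the test (log2 change −0.07, 95% interval −0.47 to 0.33, edgeR adjusted p = 0.798). Between kinds of culture the groups overlapped. TolDC over BMDC had a log2 change −0.28, 95% interval −0.54 to −0.01, edgeR adjusted p = 0.0682. The test was passed without BMDC replicate 1 (−0.39, edgeR adjusted p = 0.00815) or without the 4 libraries numbered 1 (−0.35 ± 0.083 SE, edgeR adjusted p = 0.0002), but not with libraries 2 and 3 summed (−0.26 ± 0.18 SE, edgeR adjusted p = 0.27). With the library number as a replicate block it was passed (−0.27, edgeR adjusted p = 0.00286). TolDC + LPS were lower than BMDC + LPS (log2 change −0.35 ± 0.14 SE, 1.27-fold lower, edgeR adjusted p = 0.0417), but the test was not passed without any 1 of TolDC + LPS replicates 1 and 2, BMDC + LPS replicates 2 and 3 or TolDC replicate 3 (log2 changes of −0.37 to −0.26).

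Adora2a (chr10:75316877-75334784, plus strand, ENSMUSG00000020178), which encodes a high-affinity adenosine receptor, changed most among the 10 genes, with a ratio of 51.6 between the means of its highest and lowest groups. It was at 50.1, 54.2 and 55.0 CPM in TolDC + LPS and 1.78, 2.73 and 2.92 CPM in TolDC. Its BMDC + LPS levels were 129, 126 and 129 CPM, against 10.9, 12.997 and 13.3 CPM in BMDC. The 4 groups did not overlap, and BMDC + LPS were highest and TolDC lowest. LPS raised Adora2a in TolDC (log2 change 4.41 ± 0.10 SE, 21.3-fold higher, edgeR adjusted p = 1.06e-15). The same direction held in BMDC (log2 change 3.37 ± 0.078 SE, 10.3-fold higher, edgeR adjusted p = 7.82e-16). The rise was larger in TolDC by 1.04 ± 0.15 on the log2 scale (edgeR adjusted p = 2.47e-05). TolDC + LPS held less Adora2a than BMDC + LPS (log2 change −1.27 ± 0.066 SE, 2.41-fold lower, edgeR adjusted p = 5.57e-11), and TolDC held less than BMDC (log2 change −2.31 ± 0.12 SE, 4.96-fold lower, edgeR adjusted p = 8.36e-11).

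Adora2b (chr11:62248984-62266453, plus strand, ENSMUSG00000018500), encoding a low-affinity adenosine receptor, was at 60.0, 83.1 and 81.0 CPM in TolDC + LPS and 12.7, 15.4 and 15.5 CPM in TolDC. BMDC + LPS libraries held 49.7, 66.1 and 64.0 CPM, against 24.7, 24.8 and 24.6 CPM in BMDC. The 2 LPS groups overlapped each other and lay above the groups without LPS, which did not overlap. With LPS, Adora2b rose in TolDC (log2 change 2.36 ± 0.16 SE, 5.14-fold higher, edgeR adjusted p = 7.41e-07). BMDC cultures moved likewise (log2 change 1.27 ± 0.16 SE, 2.42-fold higher, edgeR adjusted p = 4.94e-05). Its rise in TolDC was larger by 1.09 ± 0.23 on the log2 scale (edgeR adjusted p = 0.00384), which did not pass with libraries 2 and 3 summed (1.11, edgeR adjusted p = 0.0555). TolDC were lower than BMDC (log2 change −0.76 ± 0.18 SE, 1.70-fold lower, edgeR adjusted p = 0.00426). TolDC + LPS over BMDC + LPS did not pass the test (log2 change 0.32, 95% interval 0.00 to 0.65, edgeR adjusted p = 0.0708), but passed it without TolDC + LPS replicate 1 (0.46, edgeR adjusted p = 0.00264) and without the 4 libraries numbered 1 (0.33 ± 0.041 SE, edgeR adjusted p = 1.65e-10). With libraries 2 and 3 summed it did not pass (0.30 ± 0.21 SE, edgeR adjusted p = 0.285). With the library number as a replicate block it passed (0.32, edgeR adjusted p = 0.000249).

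Adora3 (chr3:105870858-105908926, plus strand, ENSMUSG00000000562) encodes an adenosine receptor that lowers cyclic AMP and in mice is known from mast cells. It was at 2.64, 4.17 and 4.31 CPM in TolDC + LPS and 4.12, 4.08 and 4.76 CPM in TolDC. In BMDC + LPS it had 1.30, 1.89 and 1.71 CPM, against 2.19, 3.08 and 2.58 CPM in BMDC. Both TolDC groups lay above BMDC + LPS, and TolDC lay above BMDC, whereas TolDC + LPS overlapped TolDC and BMDC. Adora3 was higher in TolDC + LPS than in BMDC + LPS (log2 change 1.21 ± 0.20 SE, 2.31-fold higher, edgeR adjusted p = 3.49e-05). It was higher in TolDC than in BMDC (log2 change 0.72 ± 0.18 SE, 1.65-fold higher, edgeR adjusted p = 0.00231). It fell with LPS in BMDC (log2 change −0.70 ± 0.21 SE, 1.63-fold lower, edgeR adjusted p = 0.00671), and its change with LPS in TolDC did not pass the test (log2 change −0.22, 95% interval −0.58 to 0.15, edgeR adjusted p = 0.273). The difference between these responses did not pass it either (log2 change 0.49, 95% interval −0.09 to 1.06, edgeR adjusted p = 0.166), except without TolDC + LPS replicate 1 (0.67, edgeR adjusted p = 0.0268) or the 4 libraries numbered 1 (0.61 ± 0.25 SE, edgeR adjusted p = 0.0383). With libraries 2 and 3 summed it did not pass (0.42 ± 0.35 SE, edgeR adjusted p = 0.399). Adora3 shares 779 exonic bases with Tmigd3 on the same strand, and Tmigd3 itself had 3 to 10 reads a library.

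The 12 mast cell and basophil markers summed to 202, 424 and 372 CPM in TolDC + LPS, 77.6, 277 and 278 CPM in TolDC, 222, 347 and 327 CPM in BMDC + LPS and 31.9, 115 and 117 CPM in BMDC, with 7 to 9 of the 12 above 1 CPM and up to 3 at 0 in a library. The marker sums of TolDC and BMDC overlapped, and so did those of TolDC + LPS and BMDC + LPS. Both overlaps rested on the library numbered 1 of TolDC and of TolDC + LPS. At the same library number, TolDC were above BMDC throughout, at 77.6 against 31.9, 277 against 115 and 278 against 117 CPM. TolDC + LPS were above BMDC + LPS at 424 against 347 and 372 against 327 CPM. The libraries numbered 1 went the other way with LPS, at 202 against 222 CPM. Without the 4 libraries numbered 1, Adora3 stayed higher in TolDC + LPS than in BMDC + LPS (1.24 ± 0.18 SE, edgeR adjusted p = 1.44e-08) and in TolDC than in BMDC (0.63 ± 0.16 SE, edgeR adjusted p = 0.000416). In the libraries left, the marker sums were higher in the same groups, so this fit does not separate Adora3 from the markers. The markers' part in the Adora3 values was not tested. The fourth adenosine receptor gene, Adora1, had 0 reads in all 12 libraries, which allows at most 0.137 CPM in the shallowest.

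P2rx4 (chr5:122707544-122729738, plus strand, ENSMUSG00000029470) encodes an ATP-gated cation channel that is partly stored in lysosomes, and P2rx7 (chr5:122643911-122691432, plus strand, ENSMUSG00000029468) one that opens at high ATP and triggers the NLRP3 inflammasome. The genes are neighbours on the same strand, 16111 bases apart with no other annotated gene between. P2rx4 was at 120.3, 124 and 121 CPM in TolDC + LPS and 64.4, 60.8 and 61.9 CPM in TolDC. Levels in BMDC + LPS were 191, 168 and 172 CPM, against 148, 137 and 142 CPM in BMDC. The 4 groups did not overlap, and both BMDC groups lay above both TolDC groups. P2rx4 was lower in TolDC + LPS than in BMDC + LPS (log2 change −0.54 ± 0.046 SE, 1.45-fold lower, edgeR adjusted p = 5.86e-09). It was lower in TolDC than in BMDC (log2 change −1.19 ± 0.048 SE, 2.28-fold lower, edgeR adjusted p = 1.18e-13). It rose with LPS in TolDC (log2 change 0.97 ± 0.047 SE, 1.95-fold higher, edgeR adjusted p = 1.16e-12). So it did in BMDC (log2 change 0.31 ± 0.046 SE, 1.24-fold higher, edgeR adjusted p = 5.27e-06). The rise was larger in TolDC, by 0.65 ± 0.066 on the log2 scale (edgeR adjusted p = 2.30e-07).

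P2rx7 was at 7.51, 8.14 and 7.70 CPM in TolDC + LPS and 16.7, 16.4 and 17.5 CPM in TolDC. The BMDC + LPS libraries had 8.80, 12.99 and 10.7 CPM, against 11.7, 12.8 and 12.01 CPM in BMDC. It was highest in TolDC and lowest in TolDC + LPS, neither of which overlapped another group, while BMDC + LPS and BMDC overlapped. P2rx7 fell with LPS in TolDC (log2 change −1.12 ± 0.10 SE, 2.17-fold lower, edgeR adjusted p = 1.10e-08). In BMDC its change with LPS did not pass the test (log2 change −0.18, 95% interval −0.39 to 0.04, edgeR adjusted p = 0.129), though it did without BMDC + LPS replicate 2 (−0.33, edgeR adjusted p = 0.00471) and under upper-quartile scaling (−0.26, edgeR adjusted p = 0.0398). The LPS responses differed by −0.94 ± 0.14 on the log2 scale (edgeR adjusted p = 3.75e-05). P2rx7 was lower in TolDC + LPS than in BMDC + LPS (log2 change −0.47 ± 0.11 SE, 1.38-fold lower, edgeR adjusted p = 0.000701). It was higher in TolDC than in BMDC (log2 change 0.47 ± 0.10 SE, 1.38-fold higher, edgeR adjusted p = 0.000435). With LPS in TolDC the 2 neighbouring channel genes moved in opposite directions.

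P2ry6 (chr7:100937630-100974649, minus strand, ENSMUSG00000048779) encodes a receptor for UDP known to promote uptake and chemokine release by phagocytes. It was at 73.5, 69.1 and 70.4 CPM in TolDC + LPS and 73.1, 72.3 and 70.6 CPM in TolDC. Its BMDC + LPS levels were 9.89, 11.3 and 10.2 CPM, against 29.7, 28.5 and 30.1 CPM in BMDC. The TolDC groups overlapped each other and lay above BMDC, which lay above BMDC + LPS. P2ry6 was higher in TolDC + LPS than in BMDC + LPS (log2 change 2.77 ± 0.053 SE, 6.81-fold higher, edgeR adjusted p = 2.45e-18). It was higher in TolDC than in BMDC (log2 change 1.29 ± 0.046 SE, 2.45-fold higher, edgeR adjusted p = 2.25e-14). LPS lowered it in BMDC (log2 change −1.49 ± 0.056 SE, 2.82-fold lower, edgeR adjusted p = 1.80e-14), and the change in TolDC did not pass the test (log2 change −0.02, 95% interval −0.11 to 0.07, edgeR adjusted p = 0.692). The test of the difference between the LPS responses gave 1.48 ± 0.071 on the log2 scale (edgeR adjusted p = 1.61e-11).

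P2ry14 (chr3:59113855-59153618, minus strand, ENSMUSG00000036381) encodes a receptor for UDP-glucose. It was at 139, 138 and 139 CPM in TolDC + LPS and 136, 132 and 132 CPM in TolDC. BMDC + LPS libraries held 82.3, 85.0 and 82.4 CPM, against 83.8, 81.6 and 80.6 CPM in BMDC. All 6 TolDC libraries, with or without LPS, lay above all 6 BMDC libraries. P2ry14 was higher in TolDC + LPS than in BMDC + LPS (log2 change 0.74 ± 0.035 SE, 1.67-fold higher, edgeR adjusted p = 9.95e-13). The same held for TolDC against BMDC (log2 change 0.70 ± 0.035 SE, 1.62-fold higher, edgeR adjusted p = 2.79e-12). Its changes with LPS did not pass the test in TolDC (log2 change 0.06, 95% interval −0.01 to 0.13, edgeR adjusted p = 0.129) or in BMDC (log2 change 0.02, 95% interval −0.05 to 0.10, edgeR adjusted p = 0.599), nor did their difference (log2 change 0.04, 95% interval −0.07 to 0.14, edgeR adjusted p = 0.574). Without the 4 libraries numbered 1, the change in TolDC passed it at the same small size (0.07 ± 0.032 SE, edgeR adjusted p = 0.0433), but not with libraries 2 and 3 summed (0.06 ± 0.046 SE, edgeR adjusted p = 0.285). P2ry14 lies within the bounds of Med12l on the opposite strand, and no exonic base is shared.

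**Figure D4:**
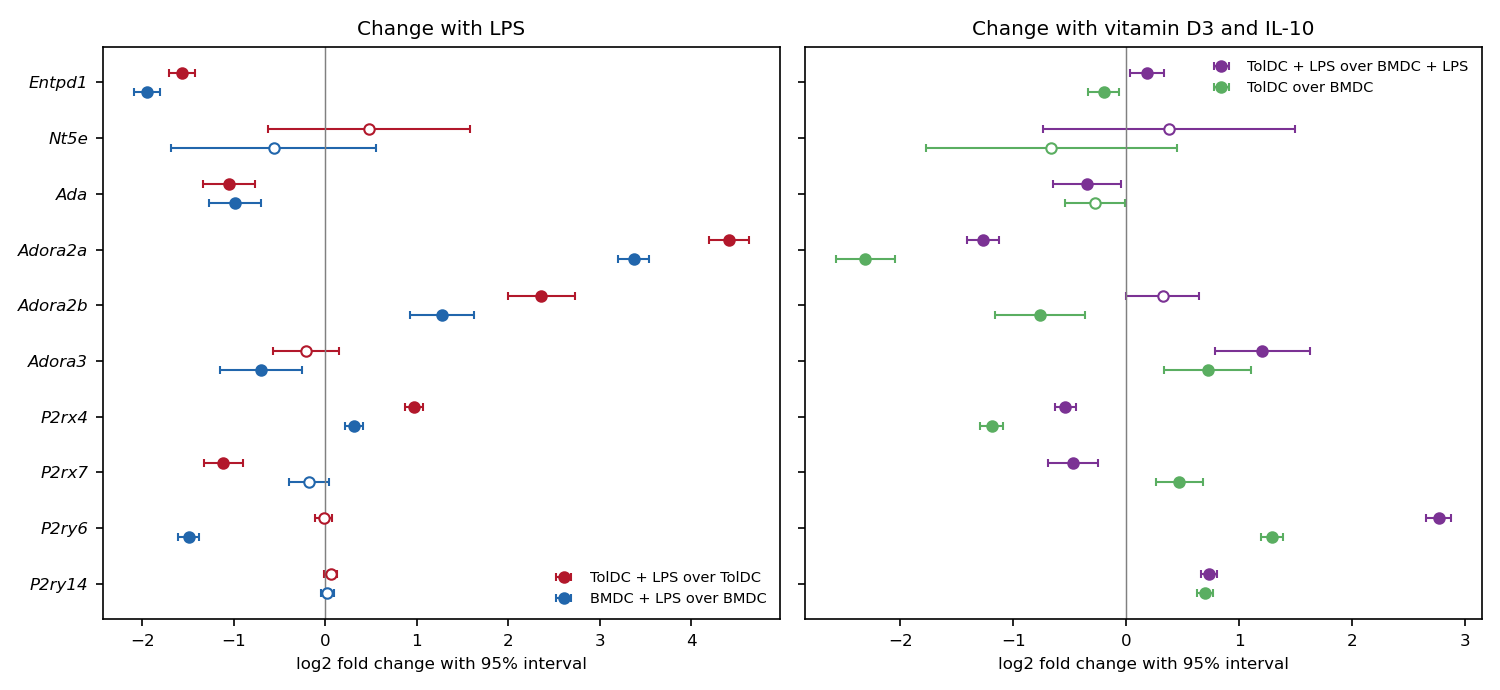
Log2 fold change with its 95% interval for TolDC + LPS over TolDC and BMDC + LPS over BMDC (left) and for TolDC + LPS over BMDC + LPS and TolDC over BMDC (right), with filled circles for genes that passed the test and open circles for those that did not. Adora2a has the largest rise with LPS in both kinds of culture, and P2ry6 the largest excess in TolDC + LPS over BMDC + LPS at 2.77.

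Counted over the 10 genes, 3 rose, 3 fell and 4 did not pass the test with LPS in TolDC, where 71.3% of all genes tested passed it (35.4% higher and 35.9% lower). With LPS in BMDC 3 rose, 4 fell and 3 did not pass, against a background of 73.2% (36.7% higher and 36.4% lower). TolDC + LPS over BMDC + LPS had 4 higher, 4 lower and 2 that did not pass, against 67.9% (34.3% higher and 33.7% lower). TolDC over BMDC likewise had 4 higher, 4 lower and 2 that did not pass, against 62.4% (32% higher and 30.4% lower). The shares of members that passed were thus near those of all genes in these comparisons, which were made from shared groups. The difference between the LPS responses passed the test in 6 members, 5 of them upward, against 44.4% of all genes (20.4% higher and 24% lower).

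The groups compared did not overlap for 7 members with LPS in TolDC and 7 with LPS in BMDC, against 75.6% and 74.8% of all genes. They did not overlap for 6 members in TolDC + LPS against BMDC + LPS and 8 in TolDC against BMDC, beside 71.4% and 66.9% of all genes. The median log2 change over the members was 0.02 with LPS in TolDC, −0.37 with LPS in BMDC, 0.25 in TolDC + LPS over BMDC + LPS and −0.24 in TolDC over BMDC, beside −0.00168, −0.000288, 0.0241 and 0.00907 over all genes tested. The median absolute log2 change over the members was 1.01 with LPS in TolDC and 0.84 with LPS in BMDC, beside 0.40 and 0.45 over all genes. The members were chosen with earlier results of these data known, so these counts and medians are a description.

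Among 19 ectonucleotidase genes, Entpd1 and Nt5e included, 14 were tested. With LPS in TolDC 6 of these rose and 6 fell, and with LPS in BMDC 6 rose and 4 fell. In TolDC + LPS over BMDC + LPS 5 were higher and 1 lower, and in TolDC over BMDC 8 were higher and 3 lower. Of all genes tested, 71.3%, 73.2%, 67.9% and 62.4% passed in these comparisons, in this order. The median log2 change of the list was 0.08 with LPS in TolDC, 0.11 with LPS in BMDC, 0.19 in TolDC + LPS over BMDC + LPS and 0.28 in TolDC over BMDC. Medians over all genes were −0.00168, −0.000288, 0.0241 and 0.00907 in the same order, also beside the lists that follow. Among those reaching 5 CPM, the largest change in each of these comparisons was that of Acpp, which encodes prostatic acid phosphatase, an enzyme that in mice is known to convert extracellular AMP to adenosine as CD73 does. Acpp averaged 1139 ± 54.1 CPM in TolDC + LPS, 337 ± 16.3 CPM in TolDC, 192 ± 8.78 CPM in BMDC + LPS and 29.9 ± 1.38 CPM in BMDC (SD, n = 3 per group), and no group overlapped another. Acpp rose with LPS in TolDC (log2 change 1.76 ± 0.049 SE, 3.38-fold higher, edgeR adjusted p = 2.68e-16). It did so in BMDC as well (log2 change 2.68 ± 0.054 SE, 6.42-fold higher, edgeR adjusted p = 2.13e-18). It was higher in TolDC + LPS than in BMDC + LPS (log2 change 2.57 ± 0.051 SE, 5.93-fold higher, edgeR adjusted p = 3.33e-18). It was higher in TolDC than in BMDC (log2 change 3.49 ± 0.055 SE, 11.3-fold higher, edgeR adjusted p = 5.27e-19). Per kilobase of exon its mean level was 155 CPM in TolDC + LPS, 46.0 in TolDC, 26.2 in BMDC + LPS and 4.08 in BMDC, above that of Nt5e in every library. The NAD-consuming surface enzymes Cd38 and Bst1 rose with LPS in TolDC, Cd38 2.83-fold (edgeR adjusted p = 5.56e-10) and Bst1 3.02-fold (edgeR adjusted p = 1.09e-05). Cd38 was also higher in BMDC + LPS, at 148 to 174 CPM, than in BMDC, at 107 to 123 CPM. Bst1 overlapped there, at 144 to 188 CPM in BMDC + LPS and 143 to 156 CPM in BMDC.

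Of 16 genes for the removal and transport of adenosine, Ada included, 15 were tested. With LPS in TolDC 6 rose and 6 fell, and with LPS in BMDC 4 rose and 8 fell. TolDC + LPS over BMDC + LPS had 4 higher and 9 lower, and TolDC over BMDC 4 higher and 5 lower. Shares of all genes passing were 71.3%, 73.2%, 67.9% and 62.4%, in this order. Over the list the median log2 change was −0.03 with LPS in TolDC, −0.38 with LPS in BMDC, −0.35 in TolDC + LPS over BMDC + LPS and −0.11 in TolDC over BMDC. Slc28a3, a sodium-driven importer of nucleosides, averaged 15.5 ± 3.68 CPM in TolDC + LPS, 3.63 ± 0.473 CPM in TolDC, 23.8 ± 1.33 CPM in BMDC + LPS and 73.7 ± 4.37 CPM in BMDC (SD, n = 3 per group). TolDC were lowest and BMDC highest, and LPS moved them in opposite directions, up in TolDC (log2 change 2.09 ± 0.19 SE, 4.25-fold higher, edgeR adjusted p = 2.48e-06) and down in BMDC (log2 change −1.64 ± 0.13 SE, 3.11-fold lower, edgeR adjusted p = 1.02e-06). Slc29a1, an equilibrative nucleoside transporter, was lower in TolDC + LPS than in BMDC + LPS (log2 change −1.13 ± 0.058 SE, 2.19-fold lower, edgeR adjusted p = 3.62e-12). The same held for TolDC against BMDC (log2 change −1.29 ± 0.052 SE, 2.44-fold lower, edgeR adjusted p = 1.50e-13). Slc29a3, also on the list, was instead higher in TolDC + LPS than in BMDC + LPS (log2 change 0.87 ± 0.071 SE, 1.83-fold higher, edgeR adjusted p = 8.43e-08). Ampd3, which deaminates AMP inside cells, rose with LPS in TolDC (log2 change 3.59 ± 0.080 SE, 12.02-fold higher, edgeR adjusted p = 9.62e-18). The same direction held in BMDC (log2 change 3.03 ± 0.079 SE, 8.17-fold higher, edgeR adjusted p = 1.01e-16). Adk, adenosine kinase, fell with LPS in TolDC (log2 change −1.32 ± 0.055 SE, 2.49-fold lower, edgeR adjusted p = 1.01e-13). Its levels were also lower in BMDC + LPS, at 11.4 to 11.6 CPM, than in BMDC, at 20.4 to 21.4 CPM.

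Of the 7 P2X genes 6 were tested, P2rx4 and P2rx7 included. P2rx5 averaged 22.5 ± 1.54 CPM in TolDC + LPS, 51.5 ± 0.527 CPM in TolDC, 62.0 ± 6.55 CPM in BMDC + LPS and 43.7 ± 3.05 CPM in BMDC (SD, n = 3 per group). As with P2rx7, TolDC + LPS was its lowest group. P2rx5 fell with LPS in TolDC (log2 change −1.20 ± 0.072 SE, 2.29-fold lower, edgeR adjusted p = 1.55e-10) and rose with LPS in BMDC (log2 change 0.51 ± 0.068 SE, 1.42-fold higher, edgeR adjusted p = 4.18e-06), and the responses differed by −1.70 ± 0.10 on the log2 scale (edgeR adjusted p = 1.14e-09). In TolDC + LPS over BMDC + LPS, 0 of the 6 were higher and 3 lower, and in TolDC over BMDC 3 were higher and 2 lower. With LPS, 1 rose and 2 fell in TolDC, and 2 rose and 1 fell in BMDC. Over all genes tested, 67.9%, 62.4%, 71.3% and 73.2% passed in these comparisons, in this order. The P2X genes had a median log2 change of −0.27 with LPS in TolDC, 0.19 with LPS in BMDC, −0.36 in TolDC + LPS over BMDC + LPS and −0.14 in TolDC over BMDC.

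Of the 7 P2Y genes 6 were tested, and 5 were higher and 1 lower both in TolDC + LPS over BMDC + LPS and in TolDC over BMDC. The 5 were P2ry6, P2ry14, the ADP receptor genes P2ry12 and P2ry13, and P2ry2, a receptor for ATP and UTP. Of all genes tested, 67.9% passed in TolDC + LPS over BMDC + LPS (34.3% higher) and 62.4% in TolDC over BMDC (32% higher). P2ry13 averaged 18.0 ± 0.462 CPM in TolDC + LPS, 72.7 ± 3.16 CPM in TolDC, 3.01 ± 0.742 CPM in BMDC + LPS and 12.9 ± 1.29 CPM in BMDC (SD, n = 3 per group), and was higher in TolDC + LPS than in BMDC + LPS (log2 change 2.61 ± 0.12 SE, 6.09-fold higher, edgeR adjusted p = 2.61e-12). The same held for TolDC against BMDC (log2 change 2.50 ± 0.084 SE, 5.64-fold higher, edgeR adjusted p = 8.09e-14). P2ry12 averaged 4.21 ± 0.678 CPM in TolDC + LPS, 20.4 ± 0.687 CPM in TolDC, 0.147 ± 0.148 CPM in BMDC + LPS and 2.08 ± 0.446 CPM in BMDC, the BMDC + LPS level resting on 10 reads in all. P2ry2 averaged 61.9 ± 3.603 CPM in TolDC + LPS, 35.5 ± 2.57 CPM in TolDC, 28.8 ± 1.65 CPM in BMDC + LPS and 16.9 ± 1.67 CPM in BMDC, and was higher in TolDC + LPS than in BMDC + LPS (log2 change 1.10 ± 0.067 SE, 2.15-fold higher, edgeR adjusted p = 9.56e-11). The same held for TolDC against BMDC (log2 change 1.06 ± 0.073 SE, 2.09-fold higher, edgeR adjusted p = 6.07e-10). The exception was P2ry1, another ADP receptor gene, which averaged 12.96 ± 1.000 CPM in TolDC + LPS, 42.1 ± 1.80 CPM in TolDC, 17.1 ± 1.10 CPM in BMDC + LPS and 59.5 ± 1.13 CPM in BMDC and was lower in TolDC + LPS than in BMDC + LPS (log2 change −0.39 ± 0.065 SE, 1.31-fold lower, edgeR adjusted p = 3.32e-05). With LPS 1 of the 6 rose and 3 fell in TolDC, and 1 rose and 4 fell in BMDC, where 71.3% and 73.2% of all genes passed. The P2Y genes had a median log2 change of −0.86 with LPS in TolDC, −1.65 with LPS in BMDC, 1.85 in TolDC + LPS over BMDC + LPS and 1.18 in TolDC over BMDC.

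**Figure D5:**
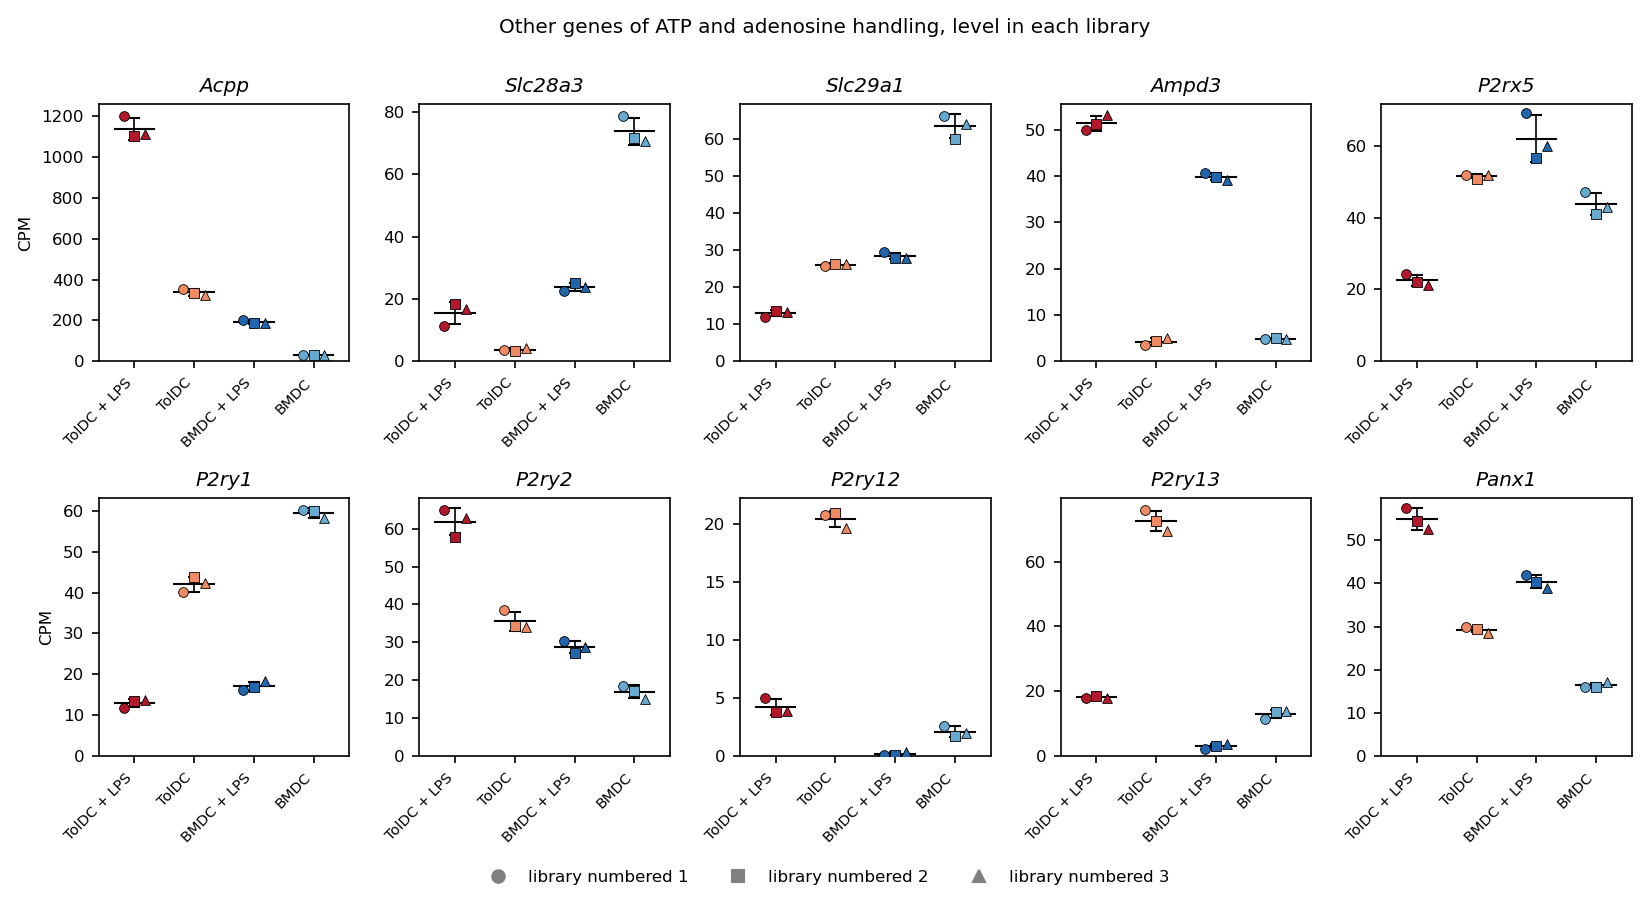
Level in CPM of 10 other genes of ATP and adenosine handling in every library, by group, with the mean as a line and the SD as a bar (n = 3). Acpp is highest in TolDC + LPS, Slc28a3 and Slc29a1 are highest in BMDC, P2rx5 is lowest in TolDC + LPS, and P2ry12 and P2ry13 are highest in TolDC.

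Of 12 genes linked to ATP release 10 were tested. Panx1, which forms a channel that lets ATP out of the cell, averaged 54.9 ± 2.55 CPM in TolDC + LPS, 29.3 ± 0.613 CPM in TolDC, 40.4 ± 1.52 CPM in BMDC + LPS and 16.3 ± 0.625 CPM in BMDC (SD, n = 3 per group), with no overlap between groups. It rose with LPS in TolDC (log2 change 0.91 ± 0.049 SE, 1.87-fold higher, edgeR adjusted p = 4.34e-12). BMDC cultures moved likewise (log2 change 1.31 ± 0.053 SE, 2.48-fold higher, edgeR adjusted p = 5.49e-14). Panx1 was higher in TolDC than in BMDC (log2 change 0.85 ± 0.054 SE, 1.80-fold higher, edgeR adjusted p = 1.14e-10). Over the 10 genes, 5 rose and 3 fell with LPS in TolDC, and 7 rose and 2 fell with LPS in BMDC. TolDC + LPS over BMDC + LPS had 5 higher and 3 lower, and TolDC over BMDC 5 higher and 2 lower. Among all genes, 71.3%, 73.2%, 67.9% and 62.4% passed in these comparisons, in this order. The median log2 change of these ATP release genes was 0.18 with LPS in TolDC, 0.89 with LPS in BMDC, 0.05 in TolDC + LPS over BMDC + LPS and 0.20 in TolDC over BMDC.

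The genes most like each member were those with the highest Pearson r of log2 CPM over the 12 libraries, among genes averaging at least 5 CPM. They share the 4 groups and the libraries' scaling with the member, so r is a description. For Adora2a they were Relb (0.999), Marcksl1 (0.999) and Cp (0.998), for Adora2b Fbxl5 (0.995), Upp1 (0.994) and Pfkl (0.989), and for Adora3 Tgfbi (0.967), Ppip5k2 (0.962) and Exosc7 (0.961). For Entpd1 they were Trap1 (0.997) and Plxdc2 (0.996), for Ada Spn (0.993) and Cebpe (0.9753), and for Nt5e, with the lowest likeness of the 10, Ly6g (0.861) and Nedd4 (0.859). Ly6g, a surface protein of neutrophils, is 1 of the 10 neutrophil markers, and r is not given for the others. Summed, these markers averaged 466 CPM in TolDC + LPS, 474 CPM in TolDC, 1200 CPM in BMDC + LPS and 1862 CPM in BMDC. Nt5e averaged 1.90, 1.36, 1.51 and 2.16 CPM in the same order. The part of neutrophils in the Nt5e values was not tested. For P2rx4 they were Ano10 (0.989) and Spin1 (0.989), for P2rx7 Timeless (0.962) and Ccnf (0.958), for P2ry6 Mrgpre (0.994) and Serpinb8 (0.993), and for P2ry14 Mgat5 (0.996) and Emb (0.995).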

How the data were processed

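The 12 deposited tables hold raw read counts per gene, which the authors made with cutadapt and STAR against mm10 (GRCm38), per the submitters' processing notes, which give no version and also name edgeR and limma; the kit was stranded, per the labels. The counts of column 4 were used, whose total was 35.2 to 37.3 times that of column 3, and column 2, counted without strand, was an alternative. Symbols and positions came from GENCODE M21 (31011 of 31054 identifiers matched) and promoter windows from RefSeq. Genes were filtered with filterByExpr, scaled with TMM factors (0.945 to 1.04), and fitted over all 12 libraries with a mean per group by edgeR 4.0.16 (robust quasi-likelihood) in R 4.3.3. CPM use the scaled library sizes, and lengths are those of all annotated exons merged. Alternatives included DESeq2 1.42.0 and limma-voom (limma 3.58.1). The code was also run on simulated counts without an effect of the library number, which does not test the p-values given here. Named list genes were up to 3 per list and comparison: called, at least 5 CPM in the higher group, and largest in absolute log2 change; some were left out of the text. Adora1, Flt3, Tmigd3 and Med12l are named outside this rule, after their values were seen. The numbers 1 to 3 in the library names were not used as pairs, since the labels do not say what they mark. Correlations between libraries of the same number ran from 0.091 to 0.466, and 1 of 18 was below 0.1. Those between libraries numbered 1 ran from 0.330 to 0.466. Library 1 against the others, over all groups, passed edgeR's test for 2011 genes (15.3%). Fits without a block count this shared difference as spread within groups, and a fit with the block is given as an alternative. The members and lists were chosen with earlier results of these data known. No 2 libraries of a group agreed within sampling noise.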

Additional observations from a re-analysis of the deposited data

Results flagged for a closer look

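The following genes responded to LPS differently in TolDC and in BMDC, by the test of the difference between the LPS responses (the log2 change of TolDC + LPS over TolDC minus that of BMDC + LPS over BMDC). Among the 10 genes the difference was 1.48 for P2ry6, 1.09 for Adora2b, 1.04 for Adora2a, 0.65 for P2rx4, 0.38 for Entpd1 and −0.94 for P2rx7.

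Among enzymes and transporters it was 3.72 for Slc28a3, 1.39 for Bst1, 0.98 for Cd38, −0.93 for Acpp, −0.74 for Pnp2 and −0.65 for Pnp. Without the 4 libraries numbered 1 that of Pnp2 did not pass (−0.53, edgeR adjusted p = 0.0997). Pnp and Pnp2 are near-identical neighbours, so their split of reads is uncertain. Among receptors and release channels the difference was −1.70 for P2rx5, 1.58 for P2ry12, −1.70 for Calhm6, −0.95 for Calhm2 and −0.94 for Lrrc8c. The P2ry12 call rested on 10 reads in BMDC + LPS. It did not pass without BMDC + LPS replicate 1 (1.03, edgeR adjusted p = 0.0845) or without the 4 libraries numbered 1 (0.71, edgeR adjusted p = 0.221), and without BMDC + LPS replicate 3 it was 2.73.

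Among genes of cyclic AMP signalling and of the inflammasome that P2X7 triggers, it was 0.97 for Prkar2b, 0.72 for Pde4d, −0.90 for Pde7a, −1.35 for Il1b, 0.63 for Nlrp3 and 0.57 for Ninj1. The Prkar2b difference did not pass under 6 of 21 alternatives. These were no filter on low counts (1.00, edgeR adjusted p = 0.0505), libraries 2 and 3 of each group summed (0.99, edgeR adjusted p = 0.14), and leaving out any 1 of TolDC + LPS replicates 2 and 3 and BMDC replicates 2 and 3 (0.85 to 0.95).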

How the results depend on the processing

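Each member's log2 change in the 5 comparisons was recomputed under other counting, scaling, filtering, tools and sample sets, 1090 values in all. Of these 1050 stayed on their side of the threshold, 18 no longer passed the test and 22 passed it newly. The sign changed in 7 of them, for P2ry14 with LPS in BMDC, Nt5e in TolDC + LPS over BMDC + LPS and the Ada difference between LPS responses, which passed the test neither as reported nor under those alternatives. The count of members higher with LPS in TolDC was 5 without the 4 libraries numbered 1, against 3 with them, Nt5e and P2ry14 being added. The other 217 of 218 recomputed counts of members, and all 109 recomputed counts of all genes called, stayed within 1.5 times. With the library number as a replicate block, 6543 genes passed the test of the difference between the LPS responses, against 5834 without it. In that blocked fit Nt5e passed for LPS in TolDC (0.46), LPS in BMDC (−0.55), TolDC over BMDC (−0.66) and the difference (1.01). Ada also passed for TolDC over BMDC (−0.27) and Adora2b for TolDC + LPS over BMDC + LPS (0.32). Beside the cases given above, Ada in TolDC + LPS over BMDC + LPS did not pass with upper-quartile factors (−0.29), no filter (−0.32), limma-voom (−0.31) or libraries 2 and 3 summed (−0.33), and Entpd1 did not with DESeq2 size factors (0.16) or with that sum (0.18). Ada in TolDC over BMDC passed with DESeq2 size factors (−0.30), with only the groups compared (−0.27) and without BMDC + LPS replicate 1 (−0.28), and Adora2b in TolDC + LPS over BMDC + LPS passed with DESeq2 (0.30). The causes were not tested. Of the 12 libraries, 10 had their highest mean correlation with libraries of their own number. Nt5e had 17 to 83 reads a library, and its log2 change with LPS in BMDC lay between −1.04 and −0.14 over the alternatives. Summing libraries 2 and 3 of each group was chosen after seeing the data.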

Other observations

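Genes of pathways linked to the receptors were described by 2 further lists. Of 24 genes of cyclic AMP signalling, through which the Adora2a and Adora2b receptors act, 21 were tested. With LPS in TolDC 12 rose and 6 fell, and with LPS in BMDC 9 rose and 8 fell. TolDC + LPS over BMDC + LPS had 6 higher and 7 lower, and TolDC over BMDC 7 higher and 8 lower. The test was passed by 71.3%, 73.2%, 67.9% and 62.4% of all genes, in this order. The median log2 change of the list was 0.19 with LPS in TolDC, 0.19 with LPS in BMDC, 0.07 in TolDC + LPS over BMDC + LPS and −0.02 in TolDC over BMDC. Pde4b, a phosphodiesterase that degrades cyclic AMP, averaged 147 ± 1.45 CPM in TolDC + LPS, 30.9 ± 0.883 CPM in TolDC, 222 ± 10.1 CPM in BMDC + LPS and 51.2 ± 1.32 CPM in BMDC (SD, n = 3 per group). It rose with LPS in TolDC (log2 change 2.25 ± 0.043 SE, 4.76-fold higher, edgeR adjusted p = 1.05e-18). It did so in BMDC as well (log2 change 2.11 ± 0.041 SE, 4.33-fold higher, edgeR adjusted p = 1.38e-18). Adcy6, an adenylyl cyclase that makes cyclic AMP, averaged 5.12 ± 0.0814 CPM in TolDC + LPS, 3.03 ± 0.491 CPM in TolDC, 26.5 ± 4.03 CPM in BMDC + LPS and 14.2 ± 0.807 CPM in BMDC, and was lower in TolDC + LPS than in BMDC + LPS (log2 change −2.37 ± 0.11 SE, 5.16-fold lower, edgeR adjusted p = 1.60e-12). The same held for TolDC against BMDC (log2 change −2.22 ± 0.13 SE, 4.67-fold lower, edgeR adjusted p = 3.54e-11).

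All 12 genes of a list linked to the inflammasome and P2X7 were tested. Not all of them act downstream of P2X7, and its part in their levels was not tested. With LPS 9 rose and 2 fell in TolDC, and 7 rose and 5 fell in BMDC, while 3 were higher and 7 lower both in TolDC + LPS over BMDC + LPS and in TolDC over BMDC. In this order, 71.3%, 73.2%, 67.9% and 62.4% of all genes passed. The median log2 change of the list was 0.45 with LPS in TolDC, 0.55 with LPS in BMDC, −0.19 in TolDC + LPS over BMDC + LPS and −0.12 in TolDC over BMDC. Nlrp3, the inflammasome sensor, averaged 135 ± 8.93 CPM in TolDC + LPS, 99.8 ± 1.34 CPM in TolDC, 179 ± 1.58 CPM in BMDC + LPS and 204 ± 14.1 CPM in BMDC (SD, n = 3 per group), and was lower in TolDC + LPS than in BMDC + LPS (log2 change −0.40 ± 0.049 SE, 1.32-fold lower, edgeR adjusted p = 8.18e-07). The same held for TolDC against BMDC (log2 change −1.03 ± 0.050 SE, 2.04-fold lower, edgeR adjusted p = 2.18e-12). Il1b, whose product is released after inflammasome activation, averaged 3097 ± 112 CPM in TolDC + LPS, 150.4 ± 2.19 CPM in TolDC, 3015 ± 69.2 CPM in BMDC + LPS and 57.3 ± 2.79 CPM in BMDC, and was higher in TolDC than in BMDC (log2 change 1.39 ± 0.043 SE, 2.63-fold higher, edgeR adjusted p = 3.63e-15). Ninj1, which ruptures the membrane of dying cells, averaged 310.3 ± 7.36 CPM in TolDC + LPS, 92.6 ± 2.88 CPM in TolDC, 144 ± 7.19 CPM in BMDC + LPS and 63.4 ± 1.98 CPM in BMDC, and was higher in TolDC + LPS than in BMDC + LPS (log2 change 1.11 ± 0.042 SE, 2.16-fold higher, edgeR adjusted p = 3.58e-14).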
